A study of Mus musculus with 16 samples.

Results

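Expression of 10 genes of the H19, Igf2 and Kcnq1 imprinted domains, which lie next to each other near the distal end of mouse chromosome 7, was examined in total RNA-seq of 16 immortalised lines of mouse embryonic fibroblasts (MEFs). The genes were matched by symbol, through the mm10 annotation, to the 54453 genes of the deposited expression table, and all 10 were found. They are H19, Igf2, Cdkn1c, Phlda2, Slc22a18, Kcnq1, Kcnq1ot1, Ascl2, Tssc4 and Nap1l4. The cells came from a pair of sibling C57BL/6J embryos at E13.5 (mid-gestation), a male (MEF-1) and a female (MEF-2), and were immortalised by serial passage through crisis with no transgene or treatment. From each parental line, single cells were sorted by flow cytometry and expanded into 7 clonal lines, so that there are 1 MEF-1 parental, 7 MEF-1 clonal, 1 MEF-2 parental and 7 MEF-2 clonal lines, with 1 library each. Every clonal line of a set descends from the same embryo and the same immortalised culture. Embryo, sex and immortalisation history can therefore not be told apart, and the spread between clonal lines is the spread within 1 culture.

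Values are rlog values, that is, log2 expression after scaling each library, shrunken towards the average of the gene, most strongly where reads are few. The table gives no counts, so depth is unknown, and a level of one gene cannot be set against that of another because gene length is not taken into account. The fibroblast label was checked against 10 markers, of which 9 had an average rlog value above 8, led by the collagen gene Col1a1 at 20.9. Of 24 markers of endothelium, blood, epithelium, muscle, germ and pluripotent cells and neurons, only the neuronal tubulin gene Tubb3 exceeded 8 (average 11.3), and 10 had an average of 0 or lower. Some markers differed between the clonal sets (MEF-2 minus MEF-1, limma). Tubb3 was 1.90 higher (adjusted p = 4.3e-06), while Sox2, from the same neural list, stood at −2.01 (adjusted p = 0.0204). The macrophage receptor gene Csf1r was 1.36 higher (adjusted p = 0.00652), and of the fibroblast markers Thy1 was 2.59 higher (adjusted p = 0.00419) and Pdgfra stood at −1.85 (adjusted p = 8.99e-05). Csf1r lies on chromosome 18, which the paper lists as aneuploid among these lines, and copy number was not examined here. The germ cell marker Ddx4 stood at −1.19 (adjusted p = 0.0341), while Nanog, from the same list, was 0.80 higher (adjusted p = 0.000883). Kdr at −0.89, Col3a1 at −0.60 and Col1a2 at 0.34 also had adjusted p-values under 0.05 (0.00419, 0.00101 and 0.03). The summed level on the log2 scale lay between 9.49 and 10.8 in MEF-1 and between 11.66 and 12.96 in MEF-2 clonal lines for the 4 neural markers, which is mostly Tubb3, between 4.88 and 6.49 and between 6.05 and 8.36 for the 4 blood markers, and between 22.24 and 22.72 and between 22.06 and 22.76 for the 10 fibroblast markers. The part of these markers in the differences between the sets was not tested.

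Genomic imprinting leaves 1 parental copy of a gene active and the other silent. At the first domain, the paternal copy makes Igf2, a fetal growth factor that signals through the receptor Igf1r, and the maternal copy makes H19, a non-coding RNA. Both draw on the same enhancers, and a methylated control region in front of H19, bound by CTCF on the unmethylated maternal copy, decides which of them is reached. At the second domain, the long non-coding RNA Kcnq1ot1 is transcribed from the paternal copy, antisense to Kcnq1, and keeps its neighbours on that copy silent, among them the cell-cycle inhibitor Cdkn1c (p57), the placental growth restrictor Phlda2 and the membrane transporter Slc22a18. Both copies carry the same sequence in these inbred cells, so the values below sum the active and the silent copy.

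The genes span a stretch of mm10 from H19 (chr7:142575529-142578143, minus strand, lincRNA) to the nucleosome assembly gene Nap1l4 (chr7:143513579-143549106, minus strand). Igf2 (chr7:142650766-142666816, minus strand) follows H19. Kcnq1ot1 (chr7:143203458-143296549, minus strand) lies wholly inside Kcnq1 (chr7:143106362-143427042, plus strand), where its start is in an intron. Cdkn1c (chr7:143458339-143461050, minus strand), Slc22a18 (chr7:143473736-143499334, plus strand) and Phlda2 (chr7:143501545-143503150, minus strand) come next. Ascl2 (chr7:142966829-142969264, minus strand), a transcription factor of the placenta, and Tssc4 (chr7:143069249-143071093, plus strand) lie between Igf2 and Kcnq1.

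Promoter sequence of RefSeq (GRCm38.p6, 250 bases before the start, 5′ to 3′ on the strand of the gene) was at hand for 9 starts of 6 of the 10 genes. It is shown for Kcnq1ot1, whose difference between the sets did not pass the test, and for 3 genes that were lower in MEF-2 clonal lines. In Kcnq1ot1 (chr7:143296548-143296797, minus strand) the motif CCAAT, searched on both strands, is in capitals.
Kcnq1ot1: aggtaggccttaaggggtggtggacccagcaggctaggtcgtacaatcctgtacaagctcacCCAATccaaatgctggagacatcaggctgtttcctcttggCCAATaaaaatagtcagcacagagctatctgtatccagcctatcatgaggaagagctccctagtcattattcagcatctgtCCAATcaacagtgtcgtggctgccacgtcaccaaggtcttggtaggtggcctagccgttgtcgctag
It holds CCAAT 3 times. Of all 32851 promoters of this length, 33.8% hold it at least once and 2.79% at least 3 times. The Ascl2 promoter, not shown, holds it 3 times as well. In the next 3 sequences, capitals mark CpG dinucleotides, the sites at which DNA is methylated. They are the second of 4 starts of Igf2 (chr7:142658805-142659054, minus strand), Phlda2 (chr7:143502525-143502774, minus strand) and Slc22a18 (chr7:143473539-143473788, plus strand).
Igf2: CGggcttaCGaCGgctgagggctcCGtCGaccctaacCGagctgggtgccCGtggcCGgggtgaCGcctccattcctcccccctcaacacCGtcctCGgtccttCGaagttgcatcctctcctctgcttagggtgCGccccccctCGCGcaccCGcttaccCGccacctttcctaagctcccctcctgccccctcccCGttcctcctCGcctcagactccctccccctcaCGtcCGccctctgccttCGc
Phlda2: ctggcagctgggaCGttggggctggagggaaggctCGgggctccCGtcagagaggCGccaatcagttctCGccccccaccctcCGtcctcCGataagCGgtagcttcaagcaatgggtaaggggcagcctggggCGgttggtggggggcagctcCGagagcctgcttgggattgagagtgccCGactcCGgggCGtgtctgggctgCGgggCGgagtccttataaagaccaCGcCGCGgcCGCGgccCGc
Slc22a18: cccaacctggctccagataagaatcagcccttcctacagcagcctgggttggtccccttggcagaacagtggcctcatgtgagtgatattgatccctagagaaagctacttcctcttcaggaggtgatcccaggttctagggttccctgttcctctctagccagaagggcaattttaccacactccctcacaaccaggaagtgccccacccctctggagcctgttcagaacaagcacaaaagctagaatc
Igf2 has 22 CpGs at this start and Phlda2 has 21, whereas the Slc22a18 window has 0, against a median of 6 over all promoters. The other 3 Igf2 starts have 1, 6 and 10. Among the genes that were not called lower, Ascl2 has 19, Tssc4 17 and Kcnq1ot1 5. Which Igf2 start these lines use was not examined, and no promoter sequence was at hand for Cdkn1c. The relation of CpG number to the differences between the sets was not tested. The methylation of the marked CpGs was not analysed here.

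H19 also carries the hairpin of miR-675, and Igf2 that of miR-483. Their mature RefSeq sequences are shown because these small RNAs lie within the 2 genes that differed in opposite directions, with the seed (bases 2 to 8) in capitals.
miR-675-5p: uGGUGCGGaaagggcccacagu
miR-675-3p: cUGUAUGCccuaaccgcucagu
miR-483-5p: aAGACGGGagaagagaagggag
miR-483-3p: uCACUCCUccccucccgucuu
The 4 seeds all differ. The short transcripts Mir675 and Mir483 are listed at exactly 0 in all 16 lines. This is not read as a measured level, since the level of genes without reads was about −2.28. The H19 and Igf2 values say nothing about the mature forms.

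H19 and Igf2 differed between the sets in opposite directions. H19 had rlog values of 14.62, 13.93, 15.06, 16.38, 14.78, 15.87 and 14.72 in MEF-1 clonal lines 1 to 7 and 14.83 in their parental line. In MEF-2 clonal lines 1 to 7, it had 18.47, 18.00, 19.03, 17.83, 18.30, 18.45 and 16.12, with 17.22 in the parental line. Of the MEF-2 clonal lines, 6 lay above every MEF-1 line, and clonal line 7 lay below the highest MEF-1 clonal line, so the sets overlapped. The mean was 15.05 ± 0.82 (SD, n = 7) in MEF-1 and 18.03 ± 0.92 (SD, n = 7) in MEF-2, a difference of 2.97 (SE 0.42), or 7.85-fold, with an adjusted p of 3.31e-05 in limma over all 21313 genes tested.

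Igf2 had rlog values of 12.96, 13.58, 12.55, 15.59, 13.96, 13.16 and 11.44 in MEF-1 clonal lines 1 to 7 and 13.93 in the parental line. In MEF-2 clonal lines 1 to 7, it had 7.98, 7.64, 8.30, 8.05, 8.59, 8.00 and 7.64, and the parental line had 7.87. The lowest MEF-1 line was 2.85 above the highest MEF-2 line, with no overlap. The mean was 13.32 ± 1.28 (SD, n = 7) against 8.03 ± 0.34 (SD, n = 7), so that Igf2 was 5.29 lower in MEF-2 (SE 0.45, adjusted p = 1.82e-07), 39.2-fold on these shrunken values. By size this difference ranked 23rd of the 21313 genes.

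Both genes already stood apart in the parental lines, each of which has 1 library. Within each line, H19 minus Igf2 lay between 0.35 and 3.28 in the MEF-1 clonal lines and between 8.48 and 10.7 in the MEF-2 clonal lines. This quantity is a log2 ratio that includes the lengths of both transcripts, so it can be compared between lines but is no ratio of molecules. A low rlog value need not mean that reads were present. Ddx3y, a gene of the Y chromosome that female cells lack, stood at 5.58 to 5.68 in the 8 MEF-2 lines, a range of 0.10. Igf2 in the same lines covered a range of 0.95, and its antisense RNA Igf2os a level of 2.26 to 2.71. In bulk samples such as these, fewer cells with a transcript and less of it per cell cannot be told apart.

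**Figure D1:**
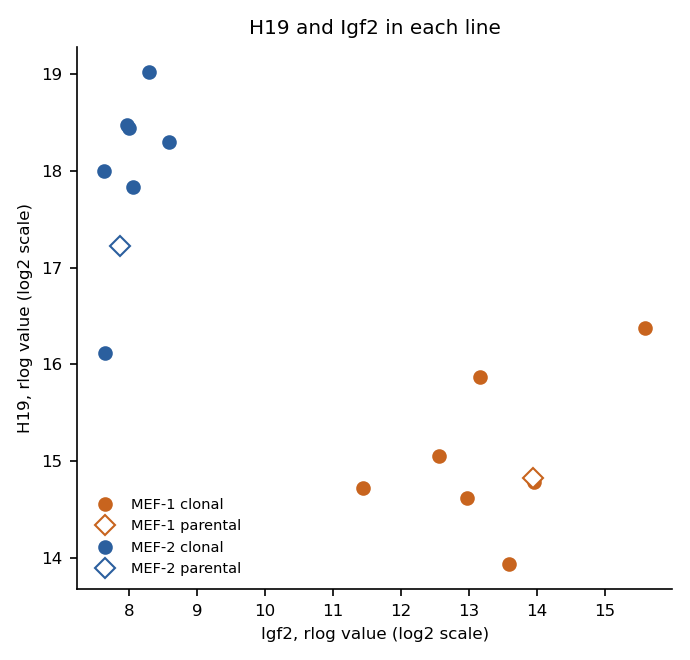
H19 (vertical axis) against Igf2 (horizontal axis), both as rlog values on the log2 scale, in the MEF-1 (orange) and MEF-2 (blue) lines. Filled circles are clonal lines and open diamonds are parental lines. Igf2 separates the sets with a gap of 2.85, and MEF-2 clonal line 7, at an H19 value of 16.12, lies lowest among the blue points.

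Cdkn1c, Slc22a18 and Phlda2, which are among the genes kept silent on the paternal copy by Kcnq1ot1, were all lower in the MEF-2 clonal lines. Cdkn1c had rlog values of 13.53, 12.07, 12.67, 14.12, 12.99, 12.39 and 11.59 in MEF-1 clonal lines 1 to 7. It had 7.09, 7.90, 7.94, 7.51, 7.98, 7.28 and 8.28 in MEF-2 clonal lines 1 to 7. The parental lines had 10.77 (MEF-1) and 8.90 (MEF-2). No clonal line of one set came within 3.31 of the clonal lines of the other. The means of 12.77 ± 0.86 and 7.71 ± 0.43 (SD, n = 7 each) differed by −5.05 (SE 0.33, adjusted p = 9.62e-09), 33.2-fold, which ranked 35th by size. Cdkn1c halts the cell cycle by binding cyclin-dependent kinases.

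Slc22a18 had rlog values of 7.11, 6.63, 5.62, 6.77, 5.95, 6.25 and 5.39 in MEF-1 clonal lines 1 to 7. The MEF-2 clonal lines had 3.61, 4.06, 5.05, 3.78, 4.28, 3.64 and 4.09. The sets did not overlap, but the gap between them was only 0.33. The difference of the means was −2.17 (SE 0.28, adjusted p = 1.65e-05).

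Phlda2 had rlog values of 5.14, 2.16, 3.45, 4.73, 3.80, 2.79 and 3.02 in the MEF-1 clonal lines and 2.00, 2.62, 2.41, 2.47, 1.92, 2.23 and 2.76 in the MEF-2 clonal lines. MEF-1 clonal line 2, at 2.16, lay within the MEF-2 range, so the sets overlapped. The difference was −1.24 (SE 0.38, adjusted p = 0.0136).

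Kcnq1ot1 itself differed by less than these genes. Its rlog values were 12.45, 12.78, 12.05, 12.98, 12.39, 12.16 and 11.98 in MEF-1 and 12.46, 11.92, 11.90, 12.23, 12.27, 12.33 and 12.05 in MEF-2 clonal lines, with 12.61 and 12.51 in the parental lines. The ranges overlapped, and the highest MEF-1 values, in clonal lines 2 and 4, lay above the MEF-2 range. The difference of −0.23 (SE 0.15) did not pass the test (adjusted p = 0.211), which does not show that the levels were the same. Kcnq1, a potassium channel gene used mainly in heart and epithelium, had values from 1.68 to 2.15 in MEF-1 and from 1.13 to 1.68 in MEF-2 clonal lines. It differed by −0.63 (SE 0.11, adjusted p = 0.00018). The kit was directional, but whether the quantification used strand is not given in the sources used here. If it did not, reads of Kcnq1 cannot be told from those of Kcnq1ot1, nor those of Igf2, Cdkn1c and Tssc4 from those of the overlapping Igf2os, Gm44732 and Trpm5.

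The remaining 3 genes moved little. Nap1l4 was 0.34 higher in MEF-2 clonal lines (SE 0.05, adjusted p = 7.78e-05), where its 7 values lay between 13.15 and 13.23, above the MEF-1 range of 12.72 to 13.07. Tssc4 was 0.31 higher (SE 0.08, adjusted p = 0.00642), with overlapping ranges of 10.72 to 11.27 in MEF-1 and 11.06 to 11.38 in MEF-2. Ascl2 had rlog values of 0.38 to 0.80 over the 16 lines, and its difference of −0.06 (SE 0.07, adjusted p = 0.488) did not pass the test.

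**Figure D2:**
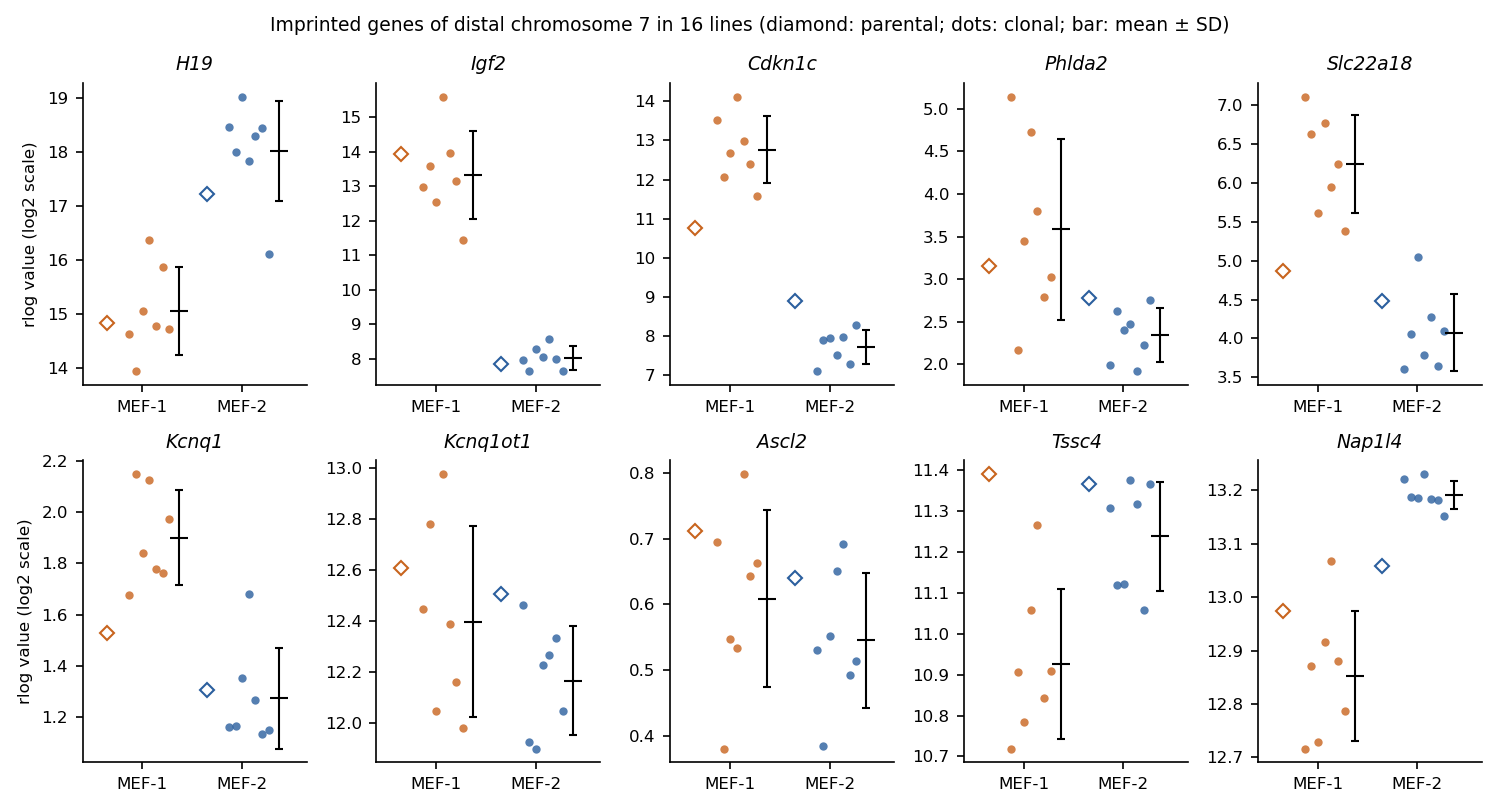
The rlog values (log2 scale, vertical axis, a scale of its own in each panel) of the 10 genes in 16 lines, with MEF-1 in orange and MEF-2 in blue. Diamonds are the parental lines (1 library each), dots the 7 clonal lines, and bars the clonal mean ± SD. Igf2, Cdkn1c, Slc22a18 and Nap1l4 have no overlap between clonal sets, and H19 overlaps through MEF-2 clonal line 7 only.

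In all, 8 of the 10 genes passed an adjusted p of 0.05, 3 higher (H19, Tssc4 and Nap1l4) and 5 lower in MEF-2. Between these sets 48.3% of all 21313 tested genes passed, 22.6% higher and 25.7% lower, so a call on its own is common. The sets did not overlap for 4 of the 10 genes, against 21.3% of all tested genes. The median absolute difference was 0.94 over the 10 genes and 0.28 over all tested genes, and 5 of the 10, against 11.0%, differed by 1 or more. The 10 genes were chosen with earlier results of these data known, so these comparisons describe them and are no test.

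Expression of chromosome 7 as a whole shifted slightly between the sets. The median over 1058 of its genes, other than the 10, of the value minus the mean over the clonal lines was −0.05 ± 0.08 (SD, n = 7) in MEF-1 and 0.06 ± 0.02 in MEF-2 clonal lines. This difference of 0.10 passed an exact permutation test (two-sided, p = 0.00874, smallest p possible 0.000583). The same median over 13615 autosomal genes differed by 0.01 (exact permutation test, two-sided, p = 0.0221). Over the 71 genes from 140 Mb on, the part of the chromosome that holds both domains, the difference was 0.13 (exact permutation test, two-sided, p = 0.00466). With each line centred on its chromosome 7 median, the median difference of all genes went from −0.02 to −0.13 and the called genes from 4821 higher and 5476 lower to 3304 higher and 7049 lower. Nap1l4 and Tssc4 remained called at 0.24 and 0.21, the 5 genes called lower kept their direction and their call, and H19 was 2.87 higher. Without centring, the differences of Nap1l4, Tssc4 and H19 were 0.34, 0.31 and 2.97, and those of Igf2 and Cdkn1c −5.29 and −5.05. The aneuploid chromosomes that the paper lists from read coverage do not include chromosome 7. The part of the chromosome shift in these differences was not tested.

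Of the 18 neighbours on the list of other genes of these domains, 14 were tested, of which 5 were higher, 3 lower and 6 not called, against 22.6% higher and 25.7% lower over all tested genes. Those past 1 on the log2 scale were Igf2os at −2.44 (SE 0.37, adjusted p = 6.2e-05), Trpm5 at −1.76 (SE 0.55, adjusted p = 0.0161), Lsp1 at 1.22 (SE 0.15, adjusted p = 1.13e-05) and Tnfrsf22 at 1.12 (SE 0.09, adjusted p = 9.42e-08). Igf2os is transcribed antisense to Igf2, Trpm5 is a cation channel of taste cells that overlaps Tssc4, Lsp1 is an actin-binding protein of leukocytes, and Tnfrsf22 is a decoy receptor with near-identical neighbours among which reads may be split. The lower genes did not form an unbroken run. Of the 11 tested genes between Igf2os and Cdkn1c, Trpm5, Kcnq1, Tspan32os and 4933417O13Rik were lower, Tssc4 and R74862 were higher, and Ascl2, Tspan32, Cd81, Gm37364 and Kcnq1ot1 were not called. The median difference of the list was 0.17, against −0.02 over all tested genes.

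From 1 Mb before H19 to 1 Mb past Nap1l4 the table holds 104 further genes, of which 40 were tested, 11 were higher and 8 lower, close to the 48.3% called over all tested genes. The largest differences were those of Igf2os, Trpm5 and Gm44732, an RNA antisense to Cdkn1c, at −2.23. Gm44732 had values of 3.58 to 5.57 in MEF-1 and 2.02 to 2.79 in MEF-2 clonal lines.

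**Figure D3:**
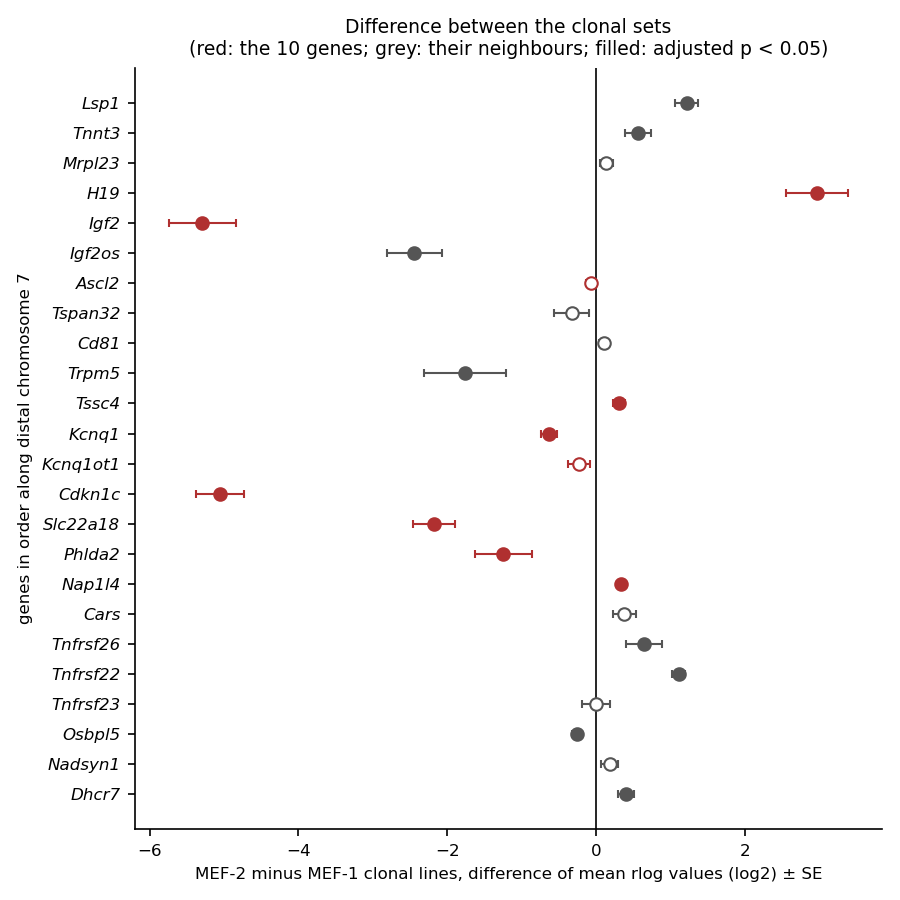
Difference of the mean rlog values, MEF-2 minus MEF-1 clonal lines (log2, horizontal axis, ± SE), for the 10 genes (red) and 14 tested neighbours (grey), from top to bottom in their order along the chromosome. Filled circles passed an adjusted p of 0.05. Igf2 at −5.29 and Cdkn1c at −5.05 lie farthest to the left and H19 at 2.97 farthest to the right, with Kcnq1ot1 at −0.23.

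Among the 8 receptors, adaptors and mRNA-binding proteins of the Igf2 pathway, 1 was higher (Igf2bp2) and 4 were lower, against 22.6% and 25.7% over all tested genes. The 2 past 1 were Igf2bp3, which binds Igf2 mRNA, at −3.90 (SE 0.51, adjusted p = 1.71e-05), and the insulin receptor Insr at −1.06 (SE 0.09, adjusted p = 3.17e-07). Igf2bp3 had values of 5.68, 5.78, 5.63, 5.97, 9.53, 5.66 and 6.16 in the MEF-2 clonal lines and 9.60 in their parental line, against 9.76 to 10.96 in the MEF-1 clonal lines. Clonal line 5 was thus close to its parental line and the other 6 were not. Igf1r, the receptor through which Igf2 acts on growth, was 0.30 lower (SE 0.06, adjusted p = 0.000864), and Igf2r, which removes Igf2 from the cell surface and is itself imprinted, differed by 0.20 (SE 0.10, adjusted p = 0.126).

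Of 11 factors known to act at imprinted control regions or with Kcnq1ot1, 8 were higher in MEF-2, 2 lower and 1 not called, where 48.3% of all tested genes were called. The methylation maintenance factor Uhrf1 was 1.15 higher (SE 0.20, adjusted p = 0.000287), and Plagl1, an imprinted zinc finger gene, was 1.14 lower (SE 0.29, adjusted p = 0.00484). The others differed by less than 1, among them the insulator protein Ctcf at 0.27 and the methyltransferase Dnmt1 at 0.29, whose call was lost under 11 alternatives. The median difference of the factors was 0.27.

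For all of the 10 genes but Ascl2, Kcnq1 and Nap1l4, clonal lines of the same set differed more than for most genes of like average. The SD of Igf2 over the 7 MEF-1 clonal lines was 1.28, where the median SD of the 4206 genes with an average within 1 of that of Igf2 was 0.16, and 99.9% of those genes had a smaller SD. In MEF-2 the SD of Igf2 was 0.34, larger than that of 89.6% of the same genes. The average was taken over all 16 lines. For Igf2 it was 10.70, between the clonal means of 13.32 in MEF-1 and 8.03 in MEF-2. For Cdkn1c it was 10.19, between 12.77 and 7.71. Like genes therefore need not have the same level within a set. H19 exceeded 99.0% of its like genes in MEF-1 and 98.5% in MEF-2, Cdkn1c 98.7% and 92.1%, and Phlda2 97.2% and 61.5%. Kcnq1ot1 exceeded 91.7% and 82.7%, Slc22a18 85.0% and 80.2%, and Tssc4 62.7% and 53.4%. Ascl2, Kcnq1 and Nap1l4 lay below the median in both sets. MEF-1 clonal line 4 had the highest H19, Igf2, Cdkn1c and Kcnq1ot1 of its set and was above the set median for 9 of the 10 genes. MEF-1 clonal line 7 was the lowest for 4 of the 10.

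The spread itself was compared between the sets by the absolute deviation of each line from the median of its set. Of all tested genes, 1 (0.00469%) passed an adjusted p of 0.05 in limma, and 1709 had an unadjusted p under 0.05. None of the 10 passed. Igf2 had the smaller spread in MEF-2, by 0.64 (SE 0.32, adjusted p = 0.604).

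**Figure D4:**
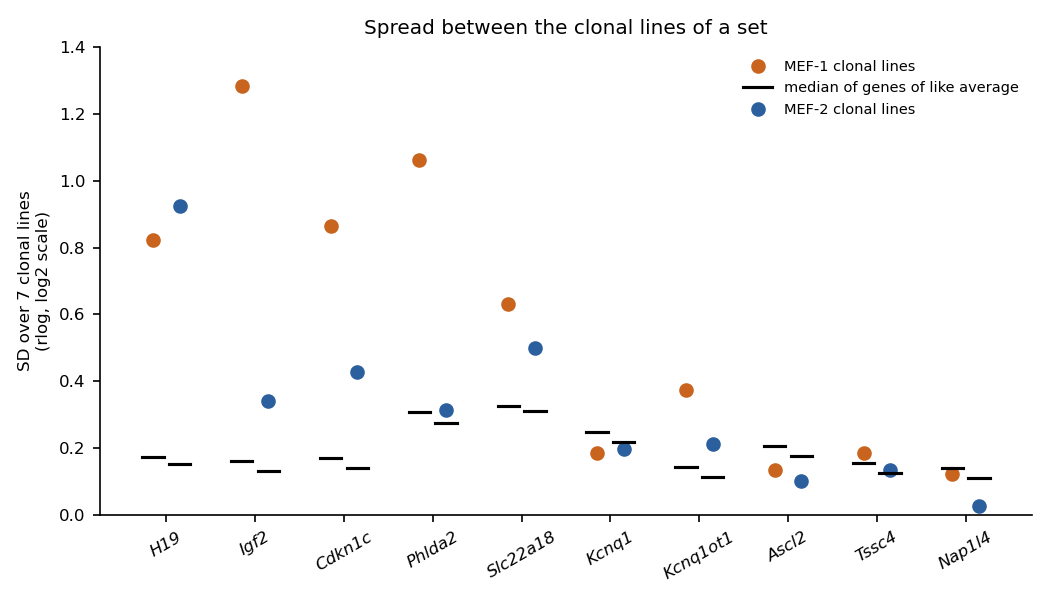
SD of the rlog values over the 7 clonal lines of MEF-1 (orange) and MEF-2 (blue) for each of the 10 genes (vertical axis, log2 scale). Black bars are the median SD of genes with an average within 1 of the same gene. All genes but Kcnq1, Ascl2 and Nap1l4 lie above the bars in both sets, with Igf2 in MEF-1 highest at 1.28.

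Relations between genes were asked within each set for 7 pairs, which gives 14 relations over 7 lines each. None passed an adjusted p of 0.05 (exact permutation tests, two-sided). H19 and Igf2, which share enhancers, had a Pearson's r of 0.50 in MEF-1 (Spearman's rho 0.32, exact p = 0.244 and 0.498, adjusted p = 0.285 and 0.556) and 0.60 in MEF-2 (rho 0.39, exact p = 0.16 and 0.396, adjusted p = 0.285 and 0.554). Without the 2 lines farthest from the median of H19, r was −0.36 and 0.26, so the positive value in MEF-1 rests on clonal lines 4 and 6.

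The strongest pair was Cdkn1c with Phlda2 in MEF-1, with r = 0.86 and rho = 0.86 (exact p = 0.0151 and 0.0238, adjusted p = 0.203 and 0.167), and r = 0.99 without clonal lines 4 and 7. In MEF-2, r was 0.53 (rho 0.36, exact p = 0.22 and 0.444, adjusted p = 0.285 and 0.556). Kcnq1ot1 had a positive r in MEF-1 and a negative r in MEF-2 with Cdkn1c (0.61 and −0.76), Phlda2 (0.28 and −0.73) and Slc22a18 (0.76 and −0.73). Spearman's rho was 0.61 and −0.61 with Cdkn1c, 0.29 and −0.64 with Phlda2, and 0.86 and −0.75 with Slc22a18. The exact p-values ran from 0.0448 to 0.529 for r and from 0.0238 to 0.556 for rho, and the adjusted values from 0.203 to 0.57 and from 0.167 to 0.556. Without the 2 lines farthest from the median of Kcnq1ot1, r in MEF-1 was −0.17 with Cdkn1c, −0.19 with Phlda2 and 0.64 with Slc22a18, so that the first 2 rest on clonal lines 4 and 7, while in MEF-2 it was −0.89, −0.81 and −0.63. The difference in sign between the sets was not tested. Kcnq1ot1 with Kcnq1 gave r = 0.57 in MEF-1 and −0.05 in MEF-2 (rho 0.29 and −0.43, exact p for r 0.186 and 0.936, for rho 0.556 and 0.354). H19 with Cdkn1c gave 0.53 and −0.50 (rho 0.43 and −0.43, exact p for r 0.22 and 0.243, for rho 0.354 in each set).

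The clonal lines were also set against their parental line. All 7 MEF-1 clonal lines had more Cdkn1c than the MEF-1 parental line (10.77), by 2.00 on average. All 7 MEF-2 clonal lines had less than the MEF-2 parental line (8.90), by 1.18 on average. This left the parental lines 1.87 apart, where the clonal means were 5.05 apart. All MEF-1 clonal lines above and all MEF-2 clonal lines below their parental line was seen in 1.72% of all tested genes. This share is of the direction seen in Cdkn1c only, and the reverse arrangement was not counted. The difference between the sets in the step from parental to clonal was 3.18 (SE 0.92) and did not pass adjustment over all genes (adjusted p = 0.382, limma), a comparison in which 0.23% of genes passed. It rests on 1 library of each parental line.

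Genes at or near Cdkn1c had the same arrangement in part. Of these, Gm44732 lies wholly within Cdkn1c on the other strand, so its reads may not be separate from those of Cdkn1c. All 7 MEF-1 clonal lines were above the parental line for Slc22a18 (4.86 in the parental line) and Gm44732 (2.87), and in MEF-2, 6 of 7 clonal lines were below it for Slc22a18 (4.48) and 6 of 7 for Gm44732 (2.43). Phlda2 was above the MEF-1 parental value of 3.16 in 4 of 7 and below the MEF-2 parental value of 2.78 in 7 of 7 clonal lines. Kcnq1ot1 was below its parental line in 5 of 7 and 7 of 7. Trpm5 was above its parental line in 7 of 7 MEF-1 and 6 of 7 MEF-2 clonal lines. For Igf2, 2 of 7 MEF-1 and 5 of 7 MEF-2 clonal lines were above the parental line. For H19 it was 3 of 7 and 6 of 7. The arrangement of Cdkn1c was not confined to its surroundings. For Igf1r, elsewhere on chromosome 7, 7 of 7 MEF-1 clonal lines were above and 7 of 7 MEF-2 clonal lines below the parental line. For Insr, on chromosome 8, it was 7 of 7 and 6 of 7. The share of all tested genes with 7 of 7 and 6 of 7 was not counted.

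Taken with both sets in 1 fit, parental minus clonal, 36 genes (0.169% of those tested) passed and none of the 10 did. Without MEF-2 clonal line 7, 128 genes passed, again none of the 10. Tssc4 came nearest, 0.30 higher in the parental lines (SE 0.12, adjusted p = 0.255). A parental line outside the range of its own 7 clonal lines was seen in 38.3% of tested genes in MEF-1 and 32.4% in MEF-2, so the position of a single gene there is common.

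**Figure D5:**
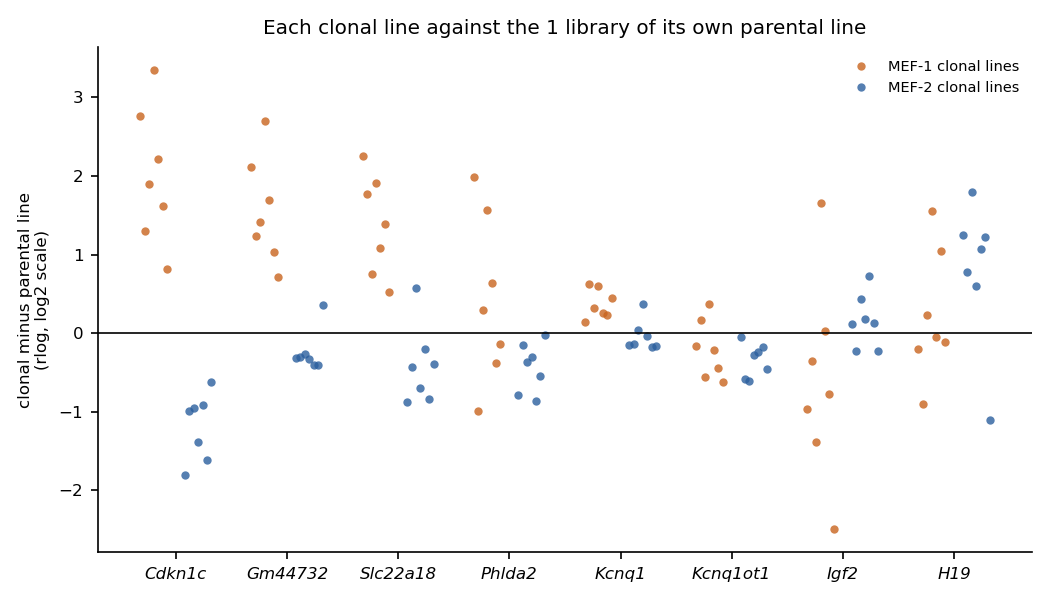
Each clonal line minus the 1 library of its own parental line (rlog, log2 scale, vertical axis) for 8 genes, with MEF-1 in orange and MEF-2 in blue, and 0 as the parental value. For Cdkn1c all 7 orange points lie above and all 7 blue points below 0.

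Genes with the most similar pattern over the 14 clonal lines, after taking away the mean of each set, were sought among 11200 other genes with an average above 8 and are given as a description. For H19 they were Ikzf4 (Pearson's r = 0.87), Cul9 (0.87) and Nsmaf (0.87), and for Igf2 they were Spock2 (0.92), Mrvi1 (0.90) and Llgl2 (0.89). For Cdkn1c they were Acap3 (0.87), Mdga1 (0.86) and Nck2 (0.85), and for Kcnq1ot1 they were Def6 (0.90), Mtss1 (0.86) and Rspo3 (0.86). Of these 12, 1 (Mrvi1) is on chromosome 7 and none is one of the 10 genes. The points share libraries. Within the sets, r ran from 0.84 to 0.98 in MEF-1 and from 0.37 to 0.91 in MEF-2 over these 12 genes, with the lowest value for Rspo3.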

How the data were processed

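Total RNA was sequenced from 16 MEF lines after rRNA depletion with a directional kit, 1 library per line. The authors trimmed reads with Trim Galore 0.6.0, quantified them with Salmon 1.5.2 on mm10 (Ensembl release 102) and deposited log2 values made by the rlog transformation of DESeq2 1.24.0. How transcripts were summed to genes, whether the transformation knew the groups and whether strand was used are not given in the sources used here. Counts were not used here, so depth and counting error are unknown.

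Groups came from the sample labels. Of 54453 genes, 54130 matched GENCODE mouse release 21 by identifier. The 21313 genes with an average above 0 were fitted with limma 3.58.1 (R 4.3.3, trended variance prior, Benjamini-Hochberg over all tested genes, calls at adjusted p under 0.05) for MEF-2 against MEF-1 clonal lines, for the spread (absolute deviation from the set median), for parental against clonal lines with the set as a term, and for the difference of that step between sets. Each parental line is a lone library, assumed to vary like the clonal lines. P-values measure the spread between clonal lines of 1 culture per set. The chromosome 7 median and the pairs of genes were tested with exact permutation tests (scipy 1.17.1), two-sided. Computations were tested on simulated data.

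The members and gene lists were chosen with earlier results of these data known. Named were the 10 genes, genes of each list past the threshold with a difference of 1 or more, the 3 largest differences in the surrounding window and the 3 genes most like H19, Igf2, Cdkn1c and Kcnq1ot1. Igf1r, Igf2r, Igf2bp2, Ctcf, Dnmt1, the marker genes and the neighbours between Igf2os and Cdkn1c were named after their values were seen. Alternatives were no filter, an average above 5, centring on the autosomal or chromosome 7 median, robust variance, a replicate block, parental lines counted with their clonal lines, deviation from the mean, and leaving out each clonal line.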

Additional observations from a re-analysis of the deposited data

Results flagged for a closer look

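A value was marked when the gap between the highest or lowest of 7 clonal lines and the next line was more than 0.568 of the whole range of the set (Dixon's limit), which chance gives in about 1 in 20 sets. Of 40 sets of 7 lines examined (19 genes and the chromosome 7 median in MEF-1 and MEF-2), 4 were marked, where 2 would come by chance. H19 in MEF-2 clonal line 7 was 16.12, below the next value of 17.83. Kcnq1 in MEF-2 clonal line 4 was 1.68, above the next value of 1.35. Gm44732 in MEF-2 clonal line 7 was 2.79, above the next value of 2.17, and Igf2bp3 in MEF-2 clonal line 5 was 9.53, above the next value of 6.16. The difference between sets in parental minus clonal Cdkn1c, 3.18, was marked because all 7 clonal lines of MEF-1 lay above and all 7 of MEF-2 below their parental line. The test of that difference itself gave an adjusted p of 0.382 in limma. Causes were not tested.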

How the results depend on the processing

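The differences between the clonal sets kept their direction and their side of the threshold for the 10 genes and for Igf2os, Trpm5, Tnfrsf22, Lsp1, Gm44732, Igf2bp3, Insr, Uhrf1 and Plagl1, under every alternative in which they were tested, leaving out each clonal line included. Of the 10 genes, 8 were called under each alternative but one, and 6 with an average above 5 required, which leaves Phlda2, Kcnq1, Ascl2, Igf2os and Gm44732 untested. Cdkn1c ranged from −5.25 to −4.66, Igf2 from −5.61 to −4.91, H19 from 2.79 to 3.29, and Phlda2 from −1.48 to −0.98 with adjusted p from 0.00266 to 0.0292. Of the other genes named with a difference, Dnmt1 lost its call under 11 alternatives (adjusted p up to 0.15), R74862 with chromosome 7 centring (0.20, adjusted p = 0.0944), and Igf2r was called without MEF-1 clonal line 4 (0.25, adjusted p = 0.0405). The alternatives for the markers Ddx4, Nanog, Kdr, Col3a1 and Col1a2 are not given here. With a replicate block, 9795 genes were called instead of 10297. The clone numbers do not pair the lines, since 1 of 7 same-numbered pairs had correlated deviations over 0.1 and 0 of 7 lines correlated best with their own number. Without any filter on low values, the spread comparison called 0 genes, parental minus clonal 76 instead of 36, and its difference between sets 475 instead of 49. The spread comparison also called 0 genes with a robust prior and 608 with the deviation from the mean, where Igf2os passed (−0.66, adjusted p = 0.037). Parental minus clonal called 16 genes with chromosome 7 centring. Leaving out each clonal line in turn gave 0 to 6 genes in the spread comparison and 13 to 128 in parental minus clonal. None of the 10 genes was called in these 3 comparisons under any alternative. The r of Kcnq1ot1 with Kcnq1 in MEF-2 went from −0.05 to 0.038 with chromosome 7 medians taken away. Causes were not tested. Read numbers are unknown, so low values of Phlda2, Kcnq1 and Ascl2 are the least certain.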
